A study of Mus musculus with 2 samples.

Results

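The neurotrophins, the GDNF family and their receptors are represented here by 9 genes, chosen by name: the ligand genes Bdnf, Ntf3 and Gdnf, and the receptor genes Ngfr, Ntrk2, Ntrk3, Ret, Gfra1 and Gfra2. All 9 had a row of their own in the deposited table, which has 35798 rows, 35397 of them naming 1 gene. The table gives FPKM, a level in which fragments are divided by transcript length and by sequencing depth, in 2 RNA sequencing libraries of adult C57BL/6 mouse bone marrow cells. Sorting removed cells with CD45 (on leukocytes), CD31 (on endothelium) or Ter119 (on red cells) and kept those with a GFP reporter under nestin regulatory sequence. Nes-gfp littermates gave the control library. The other, called the mutant library here and labelled JAK2-V617F in the plots, came from Nes-gfp;Mx1-cre;JAK2-V617F mice, in which an interferon-inducible Cre was used with a constitutively active form of the kinase JAK2 found in human myeloproliferative neoplasms. The mutant mice were sampled 6 weeks after induction with pIpC, a double-stranded RNA analogue that induces interferon, and pIpC is the labelled treatment of both groups. A library was made from the pooled cells of 3 animals, with a single library for either genotype (n = 1). The values therefore have no replicate error, no p-value is given, and a difference between the genotypes cannot be told apart from a difference between any 2 such pools. The labels list neither Cre nor JAK2-V617F for the control. Mx1-cre acts in blood cells and in part of the marrow stroma, so the labels do not say which of the sorted cells carried the mutation.

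Neurotrophins are secreted growth factors on which neurons depend for survival and branching. BDNF acts through the receptor kinase TrkB (Ntrk2) and NT-3 (Ntf3) mainly through TrkC (Ntrk3), while the Ngfr receptor binds all neurotrophins and their unprocessed precursors. GDNF and its relatives bind membrane-anchored co-receptors, GFRα1 (Gfra1) for GDNF and GFRα2 (Gfra2) for neurturin, which then engage the shared kinase RET. In the bone marrow, sympathetic nerve fibres and Schwann cells lie beside perivascular stromal cells, and the series asks about loss of these nerves in the neoplasm. Ngfr is also a surface marker used to enrich marrow stromal cells.

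The cells carried receptor transcripts of both families and very little ligand transcript. The 6 receptors ranged from 0.249 to 6.39 FPKM in the control library and from 1.77 to 9.20 FPKM in the mutant library. The 3 ligands were at most at 0.161 FPKM in control cells and 0.696 FPKM in the mutant library. Summed over genes, the receptors came to 18.7 and 23.6 FPKM and the ligands to 0.161 and 1.19 FPKM. For orientation, the median of all rows above 0 that name 1 gene was 7.80 FPKM in control cells and 6.05 FPKM in the mutant library, so only Gfra1 in the mutant library lay above its library's median. For 6 genes the value was higher in the mutant library, for Ntrk2 and Gfra2 it was lower, and Gdnf was listed at 0 in both.

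To judge how many sequenced fragments stand behind these levels, the value of 1 fragment was read from the steps in the lowest FPKM values. At 1 kb of effective length, a fragment was worth 0.181 FPKM in control cells and 0.157 FPKM in the mutant library. These values correspond to about 5525945 and 6377142 fragments in the denominators. Most members have several annotated transcripts, and the number of fragments behind an FPKM value depends on which is meant, so it is given as a range from the shortest to the longest coding transcript of the GENCODE vM21 basic set. The 95% intervals (exact Poisson for a level, exact Clopper-Pearson for a ratio) cover counting error only. They leave out differences between animals and the amplification of small amounts of RNA, in which copied fragments are not separate molecules.

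**Figure D1:**
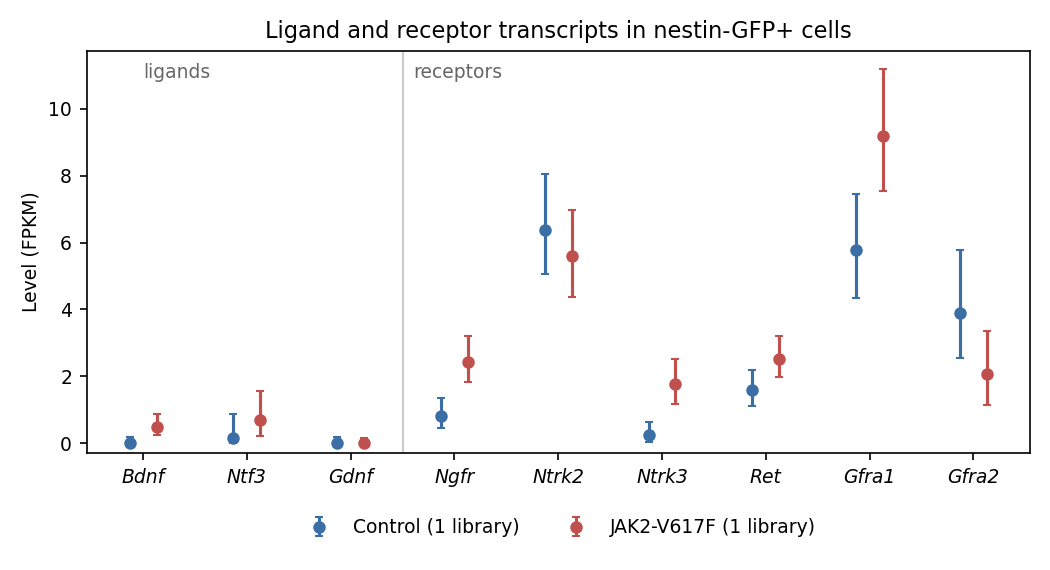
Level in FPKM (vertical axis) of the 9 genes in the control library (blue) and the mutant library (red), with exact Poisson 95% intervals for counting error on the shortest coding transcript. The ligands lie below 1 FPKM in both libraries, Ntrk2 and Gfra1 are the highest, and Bdnf, Ngfr, Ntrk3 and Gfra1 have control and mutant intervals that do not overlap.

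For members whose results are described most, the sequence upstream of the annotated start (RefSeq, GRCm38.p6) is shown here. Ngfr is shown as a receptor whose value was higher in the mutant library, Ntrk2 as a receptor at nearly the same value in both, and Gdnf as the ligand listed at 0 in both. Capitals mark matches to a GC box (GGGCGG or its reverse complement CCGCCC) or a TATA box (TATAAA or TTTATA). An E-box (CACGTG) and a cAMP response element (TGACGTCA) were also searched, and these motifs do not overlap one another in the printed stretches.
Ngfr, chr11:95587736-95587948, minus strand: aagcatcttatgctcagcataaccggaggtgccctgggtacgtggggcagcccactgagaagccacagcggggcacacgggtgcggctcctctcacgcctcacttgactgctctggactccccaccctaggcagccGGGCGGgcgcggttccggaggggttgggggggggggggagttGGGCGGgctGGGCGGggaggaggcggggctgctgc
Ntrk2, chr13:58806319-58806568, plus strand: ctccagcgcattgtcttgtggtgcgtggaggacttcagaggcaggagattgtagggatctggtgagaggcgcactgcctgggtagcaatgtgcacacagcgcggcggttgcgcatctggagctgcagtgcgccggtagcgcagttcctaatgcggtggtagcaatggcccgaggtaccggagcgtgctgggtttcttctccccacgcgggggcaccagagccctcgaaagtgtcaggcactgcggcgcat
Gdnf, chr15:7809798-7810047, plus strand: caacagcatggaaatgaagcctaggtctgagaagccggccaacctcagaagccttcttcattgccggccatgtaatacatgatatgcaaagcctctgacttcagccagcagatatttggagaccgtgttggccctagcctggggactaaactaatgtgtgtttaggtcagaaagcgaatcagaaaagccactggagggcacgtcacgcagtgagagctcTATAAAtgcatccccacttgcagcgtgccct
The Ngfr stretch held 3 GC boxes, 14 CpG dinucleotides and a G+C share of 70.9%. It ends where the GENCODE gene begins, and the full 250 bases before the RefSeq start held 4 GC boxes. The Ntrk2 stretch matched none of the 4 motifs, with 19 CpG dinucleotides and a G+C share of 62.8%. The Gdnf stretch held 1 TATA box and no GC box, with 7 CpG dinucleotides and a G+C share of 50.8%, and it belongs to the first of 2 Gdnf starts in the table. Of all 32851 upstream stretches of 250 bases in the table, 32.7% held a GC box, 12.4% a TATA box, 6.02% an E-box and 1.55% a cAMP response element. These matches describe the letters of the reference sequence and are not evidence of binding.

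Among the ligands, Gdnf, the founding member of its family, was listed at 0 FPKM in both libraries. Its row spans chr15:7811011-7837575 (plus strand), the gene has 1 annotated coding transcript of 3674 nt, and a single fragment would have given 0.0516 FPKM in control cells and 0.0448 FPKM in the mutant library. Counting alone allows a level of up to 0.191 FPKM in control cells and 0.165 FPKM in the mutant library, so Gdnf transcript was not detectable at this depth. As a check on values of 0, of 77 ribosomal protein genes 2 were at 0 in control cells and 1 in the mutant library, and the genes concerned were the copies Rpl10l and Rpl39l.

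Bdnf, which encodes brain-derived neurotrophic factor, was listed at 0 FPKM in the control library and stood at 0.493 FPKM in the mutant library. The JAK2-V617F value corresponds to about 11 to 13 fragments on the 11 coding transcripts of 3707 to 4266 nt. No fold is given against a value of 0, and the difference on the log2(FPKM + 1) scale was 0.58. The control value could be as high as 0.189 FPKM by counting alone, below the lower bound of 0.243 FPKM in the mutant library. The row spans chr2:109674700-109727007 (plus strand). Exons of an antisense gene, Gm45346, overlap those of Bdnf, and since the use of strand in the counting is not given in the sources used here, fragments of the pair cannot be told apart.

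Ntf3, which encodes neurotrophin-3, was at 0.161 FPKM in control cells and 0.696 FPKM in the mutant library. These values rest on about 1 fragment in control cells and 5 to 6 in the mutant library. The plain ratio was 4.34, with a counting interval of 0.485 to 205 on the shortest and 0.631 to 239 on the longest coding transcript, so no difference was detectable at this depth. Its row spans chr6:126101413-126166744 (minus strand). All 3 ligands stayed under 1 FPKM in both libraries and so fell below the minimum used for calls.

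Ngfr was at 0.808 FPKM in control cells and 2.43 FPKM in the mutant library. Its row spans chr11:95568818-95587735 (minus strand), and because the gene has 1 annotated transcript, of 3446 nt, its fragments can be estimated directly. There were about 15 in control cells and 51 in the mutant library, a plain ratio of 3.01 (counting interval 1.63 to 5.64). On the log2(FPKM + 1) scale, which shrinks the change of low genes, the difference was 0.93, just short of the 2-fold threshold of 1.

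Ntrk3, the gene of the NT-3 receptor TrkC, was at 0.249 FPKM in control cells and 1.77 FPKM in the mutant library. The plain ratio was 7.10 and the log2(FPKM + 1) difference 1.15. It was the only member at least 2-fold apart on this scale. The estimate of its fragments depends strongly on the transcript, with about 3 and 28 on the shortest coding transcript (2678 nt) and 27 and 220 on the longest (19703 nt). The counting interval of the ratio was 2.50 to 41.6 on the former and 4.72 to 11.0 on the latter. The row spans chr7:78192362-78578408 (minus strand), less than the GENCODE gene at both ends (78175959 to 78738012). The longest transcript may therefore reach outside the row, and the fragments and interval computed on it are uncertain.

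Ntrk2, the gene of the BDNF receptor TrkB, was at 6.39 FPKM in control cells and 5.59 FPKM in the mutant library. It was the highest member in the control. The log2(FPKM + 1) difference was -0.16 and the plain ratio 0.876, with a counting interval of 0.621 to 1.21 on the shortest and 0.744 to 1.03 on the longest coding transcript. The gene produces a full-length kinase receptor and forms that lack the kinase, and a value per gene does not tell them apart among its 7 annotated coding transcripts. Its row spans chr13:58806596-59133970 (plus strand). The 3 neurotrophin receptors thus stood in different proportions within each library: Ntrk2 was at 25.6 times the level of Ntrk3 in control cells and 3.16 times in the mutant library, and at 7.90 and 2.30 times the level of Ngfr. These proportions do not depend on any scaling between the libraries.

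Ret, the signalling kinase shared by all GDNF family co-receptors, was at 1.60 FPKM in control cells and 2.53 FPKM in the mutant library. The log2(FPKM + 1) difference was 0.44 and the plain ratio 1.58, with a counting interval of 1.06 to 2.44 on the shortest coding transcript, from about 38 and 70 fragments. Ret is also expressed by haematopoietic stem and progenitor cells. Its row spans chr6:118151748-118197744 (minus strand).

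Gfra1, the GDNF co-receptor, was at 5.77 FPKM in control cells and 9.20 FPKM in the mutant library, where it was the highest member. The log2(FPKM + 1) difference was 0.59 and the plain ratio 1.59, with a counting interval of 1.15 to 2.27 on the shortest coding transcript, from about 56 and 104 fragments. Its row spans chr19:58204139-58455909 (minus strand), and exons of the antisense gene Gm16277 overlap its own, with the same limit as for Bdnf. The row reaches beyond the GENCODE gene (58235604 to 58455909) at the lower coordinate. The transcripts behind the value may therefore differ from those used here, and the Gfra1 fragments and interval are uncertain to that extent. Gfra1 stood in nearly the same proportion to Ret in both, at 3.61 times the level of Ret in control cells and 3.63 times in the mutant library.

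Gfra2, the neurturin co-receptor, was at 3.89 FPKM in control cells and 2.08 FPKM in the mutant library, the largest decrease among the members. The log2(FPKM + 1) difference was -0.66 and the plain ratio 0.536. The counting interval was 0.255 to 1.03 on the shortest coding transcript, which includes 1, and 0.36 to 0.793 on the longest, which does not. Its row spans chr14:70890130-70979838 (plus strand). The co-receptors therefore differed from each other in their proportion: Gfra1 was at 1.48 times the level of Gfra2 in control cells and 4.42 times in the mutant library.

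**Figure D2:**
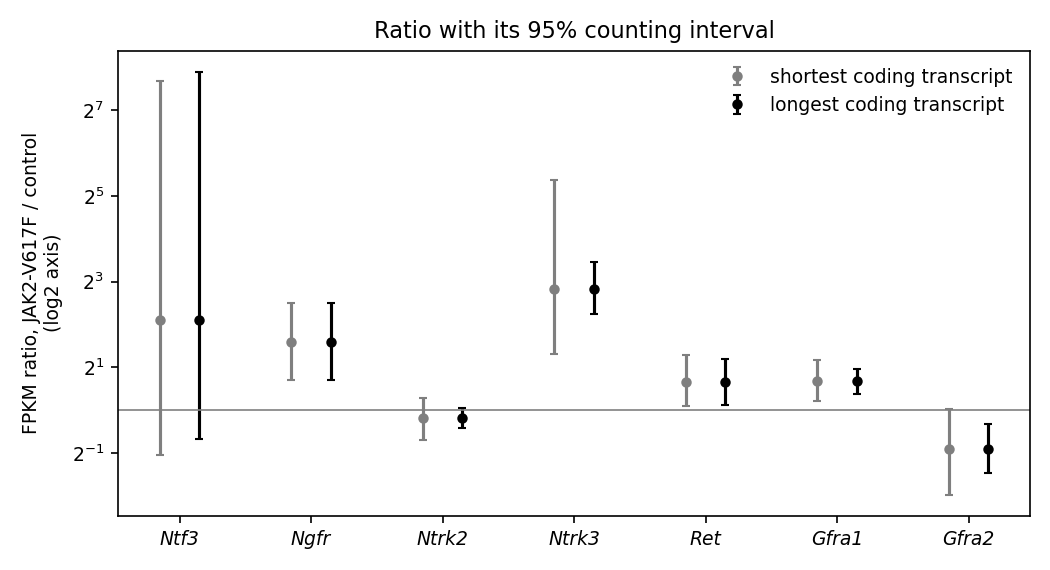
Ratio of the JAK2-V617F to the control FPKM (log2 axis) for the 7 members above 0 in both libraries, with exact 95% counting intervals computed on the shortest (grey) and longest (black) coding transcript. The intervals of Ngfr, Ntrk3, Ret and Gfra1 lie above 1 on both transcripts, those of Ntf3 and Ntrk2 include 1, and that of Gfra2 includes 1 on the shortest transcript.

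Ordered by level, the control library ran from Ntrk2 and Gfra1 through Gfra2, Ret, Ngfr, Ntrk3 and Ntf3 to Bdnf and Gdnf. On the shortest coding transcript the counting intervals of neighbours in this order overlapped at every step except between Gfra2 and Ret, and on the longest they were apart between Ngfr and Ntrk3 as well. That last step rests on the longest Ntrk3 transcript, with the limit given above. In the mutant library the order was Gfra1, Ntrk2, Ret, Ngfr, Gfra2, Ntrk3, Ntf3, Bdnf and Gdnf. There the intervals of neighbours were apart between Gfra1 and Ntrk2, between Ntrk2 and Ret, and between Bdnf and Gdnf, and overlapped at the other steps, on the shortest and on the longest transcript. Gfra2 thus stood above Ret in the control (2.43 times) and at 0.823 times its level in the mutant library.

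Read against the whole table, these differences were of ordinary size. Of the 9 members, 6 reached 1 FPKM in a library, all of them receptors, and 1 of these 6 (Ntrk3) passed 2-fold upwards in the mutant library and none passed it downwards. Ntrk3 and Ngfr, at 0.249 and 0.808 FPKM in control cells, reached 1 FPKM only in the mutant library. They thus entered the count, and the median below, through the library where they were higher. Of all 15118 rows that reached 1 FPKM and name 1 gene, 13.8% were at least 2-fold higher, 11.4% lower and 25.2% apart in either direction. All 6 receptors lay between 1 and 10 FPKM in their higher library, and of the 6718 rows in that range 21.4% were at least 2-fold higher, 14.3% lower and 35.7% apart in either direction. The median log2(FPKM + 1) difference of the 6 receptors was 0.52, against -0.03 over all rows and 0.13 over rows at 1 to 10 FPKM. Nor was a counting interval that excludes 1 unusual. Among 303 single-transcript genes with 30 to 600 estimated fragments, the interval lay above 1 in 32.7%, below 1 in 28.4% and off 1 in either direction in 61.1%. So a ratio beyond counting error, as for Ngfr, Ntrk3, Ret and Gfra1, is what most genes of this depth showed between these 2 pools.

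**Figure D3:**
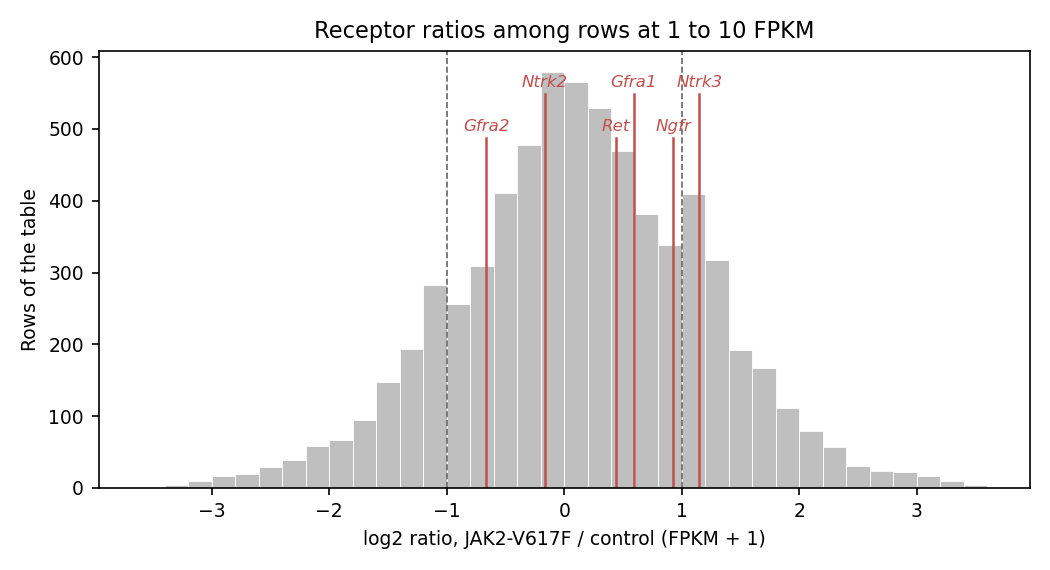
Distribution of the log2(FPKM + 1) difference between the libraries over the 6718 rows that name 1 gene and reach 1 to 10 FPKM in their higher library (grey bars, number of rows), with the 6 receptors as red lines and the 2-fold limits dashed. Ntrk3 lies past the upper limit at 1.15, Ngfr just inside it at 0.93, and the other 4 lie further in.

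In Gfra1, the member of highest mean level, the pair of values was shared by many unrelated genes. Over the 2 libraries, the protein-coding genes nearest to it on the log2(FPKM + 1) scale, of 18183 compared, were Rnf103 (5.75 and 9.08 FPKM, distance 0.0171), Cdk5 (5.70 and 9.13 FPKM, distance 0.0174) and Zfp597 (5.83 and 9.30 FPKM, distance 0.0189). With 28 genes within a distance of 0.1 and only 2 libraries, this likeness is a description of levels.

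Other listed ligands of both families gave little or no transcript. Ntf4 (listed as Ntf5), Nrtn and Artn, which encode neurotrophin-4, neurturin and artemin, were listed at 0 in both libraries. Pspn, the persephin gene, was listed at 0 in control cells and at 1.17 FPKM in the mutant library, from about 2 fragments. Gdf15, a distant relative that signals through GFRAL and RET, was at 0.228 FPKM in the control, from about 2 fragments, and listed at 0 in the mutant library. Of these 5 ligands, Pspn alone reached 1 FPKM, and it was past 2-fold upwards. That call was fixed by construction. A gene at 0 in 1 library is past 2-fold on this scale once it reaches 1 FPKM in the other. The counting interval of the Pspn ratio had a lower bound of 0.163 and no upper bound, so it included 1.

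Among other listed receptors and co-receptors, Ncam1, Sort1 and Sorl1 were abundant and close to equal, and Sorcs2, Rtn4r, Lingo1 and Gfra4 were apart. Ncam1, an adhesion molecule that also binds GDNF, was at 18.8 and 20.7 FPKM, Sort1, the partner of Ngfr for precursor neurotrophins, at 18.9 and 20.4 FPKM, and Sorl1, a related sorting receptor, at 12.8 and 14.2 FPKM in control cells and mutant library. The sortilin relative Sorcs2, which also binds neurotrophin precursors with Ngfr, was at 15.5 FPKM in control cells and 3.06 FPKM in the mutant library, a log2(FPKM + 1) difference of -2.02 and a counting interval of the ratio of 0.133 to 0.281 on the shortest coding transcript. The partners of Ngfr in the Nogo receptor complex went in opposite directions. Lingo1 was at 0.22 and 2.13 FPKM (difference 1.36), and Rtn4r was at 2.22 and 0.242 FPKM (difference -1.38). Gfra4, the persephin co-receptor, was at 0.755 and 3.35 FPKM (difference 1.31), and the counting interval of its ratio was 0.807 to 37.1 on the shortest transcript, which includes 1, and 1.78 to 15.6 on the longest, which does not. Sorcs1 was at 0.333 and 1.38 FPKM, Nradd, a relative of Ngfr, at 1.74 and 1.13 FPKM, and Sorcs3 at 0.287 and 0.0623 FPKM. Gfra3 and Gfral were listed at 0 in both. Of these 12 genes, 9 reached 1 FPKM, of which 2 were past 2-fold upwards and 2 downwards, and the median difference was 0.14.

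Transcripts of the signalling proteins below the receptors were present in both libraries. The 25 adaptors and signalling proteins of Trk and Ret kinases summed to 475 and 377 FPKM. Of these 25, 23 reached 1 FPKM, 1 passed 2-fold downwards and none upwards, and the median log2(FPKM + 1) difference was -0.17. The one lower was Grb2, the adaptor that links receptor kinases to Ras, at 56.4 FPKM in control cells and 18.6 FPKM in the mutant library. Shc1, an adaptor that docks on activated Trk receptors, was at 74.6 and 46.5 FPKM, and Frs2, another such adaptor, at 23.6 and 24.1 FPKM. All 13 effectors of Ngfr reached 1 FPKM, with 1 higher, 1 lower and a median of 0.02. Ndn, which encodes necdin, was at 0.145 and 3.02 FPKM, and Bex1 was at 1.07 FPKM in control cells and listed at 0 in the mutant library. Bex1, at 0 in 1 library, was called by construction. Of 13 negative regulators, 12 reached 1 FPKM, with a median of 0.06. The feedback inhibitors of receptor kinase signalling moved apart, Spry1 being higher at 20.6 and 45.1 FPKM and Spry2 lower at 6.83 and 2.63 FPKM. None of the 6 precursor-processing proteases that reached 1 FPKM, of 9 listed, was 2-fold apart (median -0.04), and Furin, the main convertase, was at 19.9 and 20.3 FPKM.

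Other neurotrophic factors and their receptors differed in both directions. Of 14 listed, 13 could be matched to a single row and 10 reached 1 FPKM, with 2 at least 2-fold higher and 3 lower (median 0.24). Cntfr, the ciliary neurotrophic factor receptor, was listed at 0 in control cells and at 6.19 FPKM in the mutant library, and Cdnf was listed at 0 and at 2.44 FPKM. Both were thus past 2-fold by construction. Lifr, the leukaemia inhibitory factor receptor, was lower, at 63.2 and 28.9 FPKM, as were Mdk, the midkine gene, at 19.9 and 5.57 FPKM, and Erbb2 at 10.9 and 2.18 FPKM. Over the 91 pathway genes listed, 90 could be matched to a single row and 74 reached 1 FPKM, of which 7 passed 2-fold upwards and 8 downwards, the median being 0.04. With both libraries rescaled to the same FPKM sum, 12 were higher and 6 lower. The total of 15 of 74 is to be read beside the 25.2% of all rows.

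**Figure D4:**
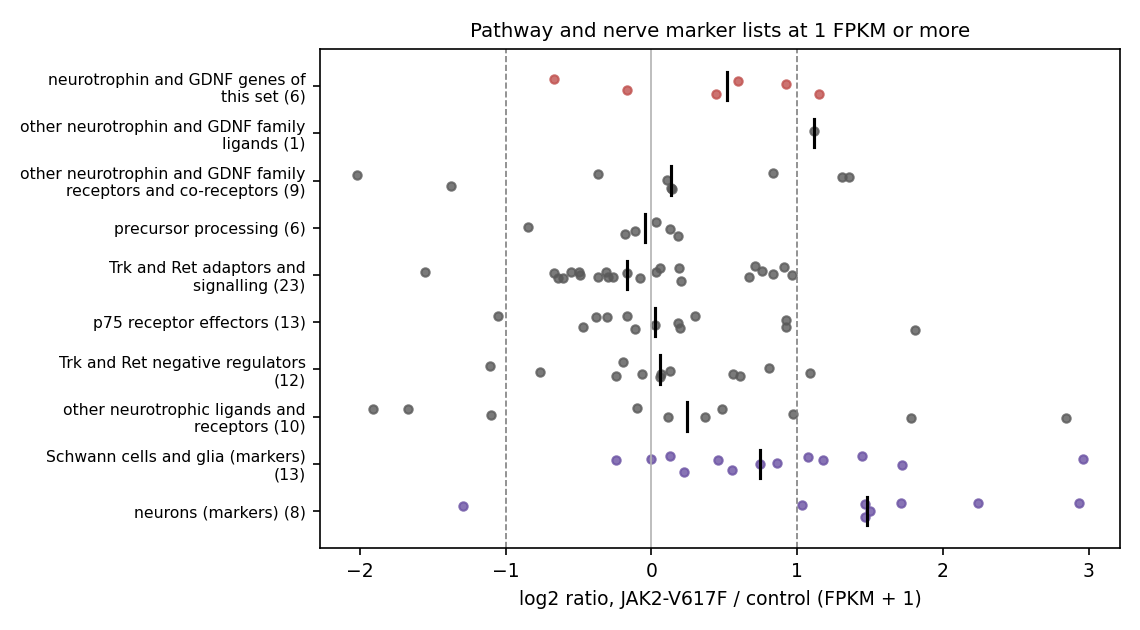
log2(FPKM + 1) difference between the JAK2-V617F and the control library (horizontal axis) of each gene at 1 FPKM or more, by list, with the number of genes in brackets, a black bar at the list's median and the 2-fold limits dashed. The pathway lists centre near 0, from -0.17 to 0.24, apart from the 1 other ligand at 1 FPKM. The neuron markers centre at 1.48, and several of them, at 0 in control cells, are past 2-fold by construction.

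Markers of other cell types differed between the libraries too, and their values are given beside those of the members. Of 15 Schwann cell and glial markers, 13 reached 1 FPKM, 5 were at least 2-fold higher in the mutant library and none lower, and their summed level was 880 FPKM in control cells and 5183 FPKM in the mutant library, most of it Mbp (624 and 4872 FPKM). Of these 13, 11 differed upwards and 2 downwards at any size, among them the myelin gene Pmp22 (177 and 149 FPKM). The Schwann cell transcription factor Sox10 was at 2.30 FPKM in both libraries, a measurement without the difference seen for Ngfr. Of 14 neuron markers, 10 were at 0 in control cells and 4 in the mutant library, and the summed level was 3.47 and 22.9 FPKM, with Snap25 the highest in the mutant library (0 and 6.63 FPKM). Of the 8 that reached 1 FPKM, 7 were past 2-fold upwards and 1 downwards. Among the 7, Snap25, Syt1, Nefm and Prph were at 0 in control cells, so their call was fixed once they reached 1 FPKM. The same holds for Pou3f1 and Gap43 among the glial markers. Stmn2 and Nefl also reached 1 FPKM only in the mutant library. The 1 downwards was Slc6a2, the noradrenaline transporter of sympathetic neurons, at 2.24 and 0.326 FPKM (difference -1.29). Dbh, the noradrenaline-synthesising enzyme of these neurons, was at 0 and 0.0718 FPKM. Th, Phox2a and Hand2, also genes of sympathetic neurons, were at 0 in both, as was the neuronal gene Elavl4. Lists of other cell types differed as well. Among the genes at 1 FPKM, 5 of 5 monocyte and macrophage markers (median difference 1.78, 8 listed) were past 2-fold upwards. So were 7 of 9 chondrocyte markers (1.49) and 4 of 5 T and NK cell markers (1.45, with 1 lower, 8 listed). Of all rows at 1 FPKM, 13.8% were. Downwards it was 4 of 9 osteoblast markers (median -0.95) and 2 of 9 erythroid markers (-0.78), against 11.4% of all rows. Under 1 FPKM were the macrophage markers C1qa (0 in both), Adgre1 (listed as Emr1, 0.114 and 0.258 FPKM) and Mrc1 (0.401 and 0.0631 FPKM). So were the T cell genes Cd3e (0 and 0.285 FPKM), Cd3g (0 in both) and Cd8a (0.130 and 0 FPKM). Cd14, Cd4, Klrb1c and the lower Trbc2, each at 0 in 1 library, were called by construction. The 9 markers of haematopoietic stem and progenitor cells summed to 184 and 225 FPKM, with Myb the highest (93.4 and 116 FPKM), and 5 were at least 2-fold higher. Slamf1 (0 and 1.24 FPKM) was among these 5 by construction. At any size 8 of the 9 differed upwards and 1 downwards, Kit (69.0 and 48.5 FPKM). The 12 markers of mesenchymal stromal cells, the labelled population, were all at 1 FPKM or more in both libraries and within 2-fold on the log2(FPKM + 1) scale (Thy1, at a difference of 0.97, was closest to the limit, and its plain ratio of 2.06 was past it), summing to 1261 and 1030 FPKM, with Cxcl12 the highest (891 and 694 FPKM). Transcripts of the markers sorted against were present: Ptprc, which encodes CD45, was at 5.38 and 8.79 FPKM and Pecam1, which encodes CD31, at 17.1 and 19.0 FPKM. The part of nerve, blood or vessel cells in the values of the members was not tested. In a bulk sample, fewer cells of a type and less RNA per cell cannot be told apart.

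The size of the member differences, and for a pair of genes the call, depended on the constant added before the ratio was taken. Ntrk3 differed by 2.42 on the log2 scale with a pseudocount of 0.1 and by 0.37 with a pseudocount of 5, and Ngfr by 1.48 and 0.36. With a pseudocount of 5 no member was 2-fold apart, and Ngfr passed 2-fold with the libraries rescaled to the same FPKM sum (1.05). Gfra1, a higher gene, ranged only from 0.40 to 0.75 over the 5 alternatives of pseudocount and scaling, and Ret from 0.19 to 0.63. Gfra2 stayed below 0 in all 5, from -0.87 to -0.33, and Ntrk2 ranged from -0.19 to -0.01. No member changed the sign of its difference under these 5 alternatives.

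**Figure D5:**
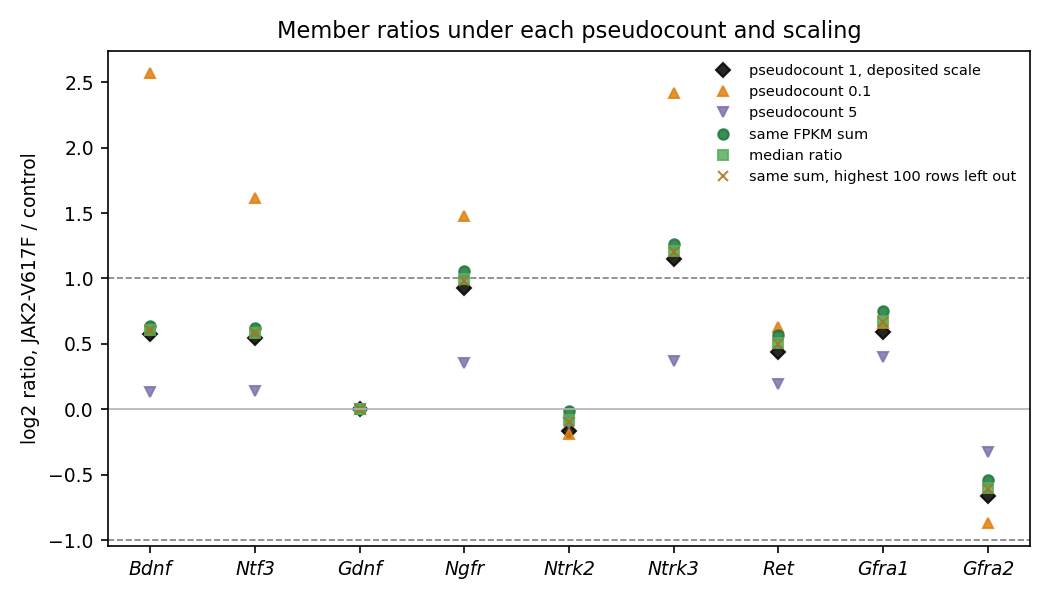
log2 ratio of the JAK2-V617F to the control library for the 9 members (horizontal axis) with pseudocounts of 1, 0.1 and 5 on the deposited scale and, at a pseudocount of 1, under 3 other scalings of the libraries, with the 2-fold limits dashed. The pseudocount spreads the low genes Bdnf, Ntf3, Ngfr and Ntrk3 widely, and the scalings move each gene little.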

How the data were processed

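The deposited table holds FPKM values per gene, computed by the authors, for 2 libraries. The submitters' processing notes name build GRCm38, the trimmer cutadapt (1.2.1), the aligners Bowtie2 (2.0.6) and TopHat2 (2.0.7), and Cufflinks. Annotation, strand use and scaling between libraries: not given in the sources used here. Per the labels' protocols, small amounts of RNA were amplified before library preparation, with no molecular identifiers mentioned.

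Rows naming several genes (401) were left out. The difference reported is log2(FPKM + 1) in the JAK2-V617F (mutant) library minus that in the control, and a gene was called at a difference of 1 or more if it reached 1 FPKM in a library. A gene at 0 in 1 library is thus always called once it reaches 1 FPKM in the other. A gene under 1 FPKM in 1 library enters the counts and medians only through the other, where it is higher. This holds for members, listed genes and all rows alike. No test was possible with 1 library per group. Locus starts are given counting from 1. Fragments were estimated from FPKM times transcript length minus 170 nt in 4583 genes with 1 GENCODE vM21 transcript. Below 3.5 estimated fragments, 79.5% (control) and 83.0% (JAK2-V617F) of values lay within 0.2 of a whole number, where 40% would if evenly spread; the unit was set from the same genes. Names were matched through RefSeq synonyms. Some listed genes are not reported here and were left out of the counts. Named genes were all members and the other family ligands and receptors. Of the other lists they were genes past 2-fold, a few of the highest, and markers at 0 or under 1 FPKM. The members, lists and length offset were chosen with earlier results of these data known, and the ranges of 1 to 10 FPKM and 30 to 600 fragments after the members' values were seen. The ratio and depth scripts were tested on simulated data. Python 3.11.15, numpy 2.4.6, pandas 2.3.3, scipy 1.17.1 and matplotlib 3.10.9 were used.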

Additional observations from a re-analysis of the deposited data

How the results depend on the processing

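No member changed direction under 5 alternatives of pseudocount and scaling. Over the 8 alternatives, the number of members at least 2-fold apart was 1 as reported and 1 under 4 alternatives, 2 with a pseudocount of 0.1 and with the libraries rescaled to the same FPKM sum (Ngfr joined Ntrk3), and 0 with a pseudocount of 5 and with a minimum of 5 FPKM, where 2 members were left. For the pathway genes the count of 15 became 24 with a pseudocount of 0.1, 6 with a pseudocount of 5 and 8 with a minimum of 5 FPKM. For all rows the count of 3805 became 4812 with a pseudocount of 0.1, 1226 with a pseudocount of 5 and 2092 with a minimum of 5 FPKM. These follow from how a pseudocount weighs low values and from fewer rows tested. Rescaling to the same sum raised the mutant library by 0.18 on the log2 scale and moved the median of all rows from -0.03 to 0.13. Low depth limits the ligands most, with at most 13 estimated fragments in any library. No replicate could be left out with 1 library per group. No paired analysis was possible because each group is a single library.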
